A study of Homo sapiens with 8 samples.

Results

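The transporter genes described here carry glucose and related sugars, amino acids, lactate and other monocarboxylates, zinc and other metals across membranes. They are the members of the SLC1, SLC2, SLC3, SLC7, SLC16, SLC30, SLC38 and SLC39 families, chosen by symbol from a combined long-read count table, where the assembly names the gene for the transcript. The rule found 70 genes with 349 transcripts among 29937 genes and loci with 96614 transcripts. By family these were 6 genes of SLC1, 11 of SLC2, 1 of SLC3, 11 of SLC7, 11 of SLC16, 9 of SLC30, 9 of SLC38 and 12 of SLC39. The rule itself uses no expression value, but the families were chosen with earlier results of these data known.

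Polyadenylated RNA of H1 cells, an established embryonic stem cell line of human origin, was read as full-length molecules on a PacBio instrument in 8 libraries, with 2 repeats in each of 4 groups. The undifferentiated group (hPSC) was H1 kept on Matrigel in mTeSR1 medium. The other groups were collected after 5 days of differentiation, in media that all contained 0.2x non-essential amino acids and 55 µM beta-mercaptoethanol. Ectoderm cells were in DMEM/F12 with 15% KOSR and 2 µM each of A83-01, PNU-74654 and Dorsomorphin. Endoderm cells were in RPMI with 2x GlutaMax, 0.5% FBS, WNT3A and 100 ng/ml Activin A. Mesoderm cells were in DMEM/F12 with 2x GlutaMax, 0.5% FBS, 100 ng/ml VEGF, 100 ng/ml BMP4 and 10 ng/ml bFGF, and with 100 ng/ml Activin A for the opening 24 hours only. Basal medium, serum, GlutaMax and cell type changed together, so a response to the medium and a difference between cell types cannot be told apart in any result below. The labels do not say whether repeats were separate cultures, so p-values measure only the spread between these libraries. All groups are of 1 cell line.

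Libraries held from 503840 to 1180888 reads. A count of 0 allowed up to 3 reads, or 2.54 to 5.95 CPM (counts scaled to the library total), and this limit covers counting error only. Reads came from longer transcripts in ectoderm, with means of 4406 and 4650 nt, than in the other 6 libraries, with 2975 to 3840 nt. The 2 hPSC libraries differed most, with a Pearson's r of log2 CPM across tested genes of 0.873, against 0.946 to 0.967 between repeats of a layer. The chi-square per degree of freedom between repeats was 8.22 in hPSC and 1.67 to 2.78 in the layers. The fit takes 1 spread per gene over all groups, so p-values against hPSC may understate the spread of hPSC. Of the endoderm markers tested, 6 of 6 were higher in endoderm than in hPSC, and of the ectoderm markers 4 of 5 in ectoderm, although SOX1 had no read in any library. In mesoderm, 3 of 5 tested mesoderm markers were higher and 1 lower, MIXL1 and MESP1 had no read there, and TBXT had 1. In endoderm, 4 of 5 tested mesoderm markers and 2 of 5 ectoderm markers were also higher than in hPSC. Of 8 pluripotent markers 5 were lower in ectoderm, 4 in endoderm and 7 in mesoderm. Of 9 amnion and trophoblast markers, 7 were tested and 7 were higher in mesoderm, with a summed level of 6630 and 7300 CPM there and 14.5 to 80.3 CPM in the other libraries. The part of such cells in the mesoderm results was not tested.

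Glucose enters cells through SLC2 carriers and, once broken down by glycolysis, leaves as lactate through SLC16 carriers. SLC3A2 is the heavy chain that holds several SLC7 light chains at the plasma membrane, where the pair exchanges large neutral amino acids or cystine for other amino acids, and SLC1A5 and the SLC38 carriers supply glutamine for such exchange. Zinc is brought into the cytosol by SLC39 carriers and removed from it by SLC30 carriers. Pluripotent cells are known for high glycolytic flux and for a high demand for glutamine and methionine.

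The promoters printed next belong to the genes on which the account turns most. SLC3A2 used different starts in different groups, SLC7A5 encodes a light chain of it that was called in the same directions, and SLC30A1 is the zinc exporter at the plasma membrane. Each run is the 250 bases before a RefSeq start on GRCh38.p14, written 5′ to 3′ on the strand of the gene. Capitals mark matches on either strand to any of 3 motifs, namely TGATGNAA (an ATF4 element), TGCACNC or TGCGCNC (the core of the metal response element) and CACGTG (an E-box).
SLC3A2 upstream start, chr11:62855859-62856108, plus strand: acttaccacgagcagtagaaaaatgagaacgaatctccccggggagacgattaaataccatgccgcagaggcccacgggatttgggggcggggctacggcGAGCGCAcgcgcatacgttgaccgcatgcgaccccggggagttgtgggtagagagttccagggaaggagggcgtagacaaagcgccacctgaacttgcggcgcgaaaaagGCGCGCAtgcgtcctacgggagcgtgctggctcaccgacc
SLC3A2 downstream start, chr11:62880646-62880895, plus strand: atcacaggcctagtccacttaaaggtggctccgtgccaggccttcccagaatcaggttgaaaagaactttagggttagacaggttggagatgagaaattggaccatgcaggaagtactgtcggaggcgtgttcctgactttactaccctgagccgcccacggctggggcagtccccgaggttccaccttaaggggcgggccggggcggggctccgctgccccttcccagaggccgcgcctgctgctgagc
SLC7A5, chr16:87869508-87869757, minus strand: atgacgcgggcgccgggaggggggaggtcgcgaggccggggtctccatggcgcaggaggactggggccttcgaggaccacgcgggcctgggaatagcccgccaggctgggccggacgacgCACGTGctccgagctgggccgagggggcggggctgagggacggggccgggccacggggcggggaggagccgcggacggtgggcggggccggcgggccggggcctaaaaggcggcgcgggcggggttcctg
SLC30A1, chr1:211579162-211579411, minus strand: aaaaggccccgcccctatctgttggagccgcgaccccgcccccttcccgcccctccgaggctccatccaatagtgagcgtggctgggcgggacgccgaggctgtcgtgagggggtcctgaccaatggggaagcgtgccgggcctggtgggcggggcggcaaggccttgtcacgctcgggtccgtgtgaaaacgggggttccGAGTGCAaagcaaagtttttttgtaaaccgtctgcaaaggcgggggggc
The SLC3A2 upstream window held 2 matches to the metal response element core, at -150 to -144 and -40 to -34 relative to the start. The downstream window held no match to these letters. SLC7A5 held 1 E-box at -130 to -125, and SLC30A1 held 1 match to the metal response element core at -49 to -43. Over all 35116 RefSeq windows of this length, 3.14% held the ATF4 element, 24.8% the metal response element core and 6.34% the E-box. Of the 70 transporter genes, 56 were in the RefSeq table with 90 windows, of which 2, 29 and 9 held these motifs, so the matches are descriptions and not sites.

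Summed over a family, the sugar carriers had the highest mean level in each group, in hPSC by less than the spread between repeats. SLC2 reads made up 2138 ± 343 CPM (SD, n = 2) in hPSC, 12197 ± 2106 in endoderm, 8869 ± 15.3 in mesoderm and 3224 ± 106 in ectoderm. The heavy chain SLC3A2 and the SLC7 family were lowest in ectoderm and highest in endoderm. SLC7 stood at 1069 ± 342 CPM in hPSC, 2280 ± 570 in endoderm, 982 ± 108 in mesoderm and 329 ± 56.8 in ectoderm. The glutamine carriers of SLC38 were highest in mesoderm, at 1443 ± 270 CPM, against 488 ± 106 in hPSC, 852 ± 101 in ectoderm and 538 ± 6.84 in endoderm. The zinc exporters of SLC30 were highest in ectoderm at 343 ± 27.1 CPM and lowest in endoderm at 83.6 ± 12, with 131 ± 43.9 in hPSC and 213 ± 13.4 in mesoderm. For SLC39, the zinc importers, the level was 2029 ± 266 CPM in hPSC, 1086 ± 64.8 in mesoderm, 1760 ± 9.17 in ectoderm and 2294 ± 65.9 in endoderm. In bulk RNA, fewer cells of a type and less RNA per cell cannot be told apart.

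**Figure D1:**
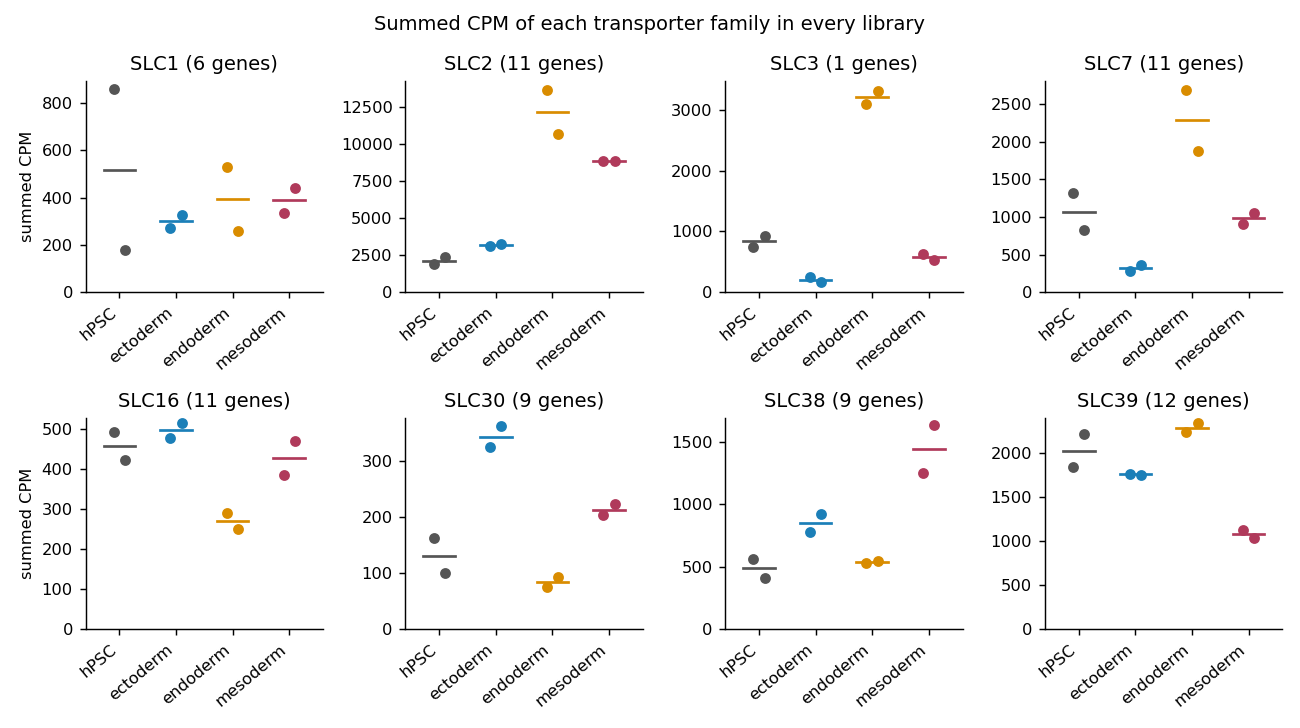
Summed CPM (vertical axis, linear from 0, each panel on its own scale) of all genes of a family in the 8 libraries, by group on the horizontal axis. Points are libraries and bars are group means, and the SLC2 and SLC3 panels show endoderm above the other groups while the SLC38 panel shows mesoderm above them.

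Of the 70 genes, 52 passed the filter on low counts and were tested with edgeR among 10847 genes. Against hPSC, 28 of 52 passed an adjusted p of 0.05 (Benjamini-Hochberg) in ectoderm and are termed called, 12 higher and 16 lower, where 48.6% of all genes tested were called, 23.8% higher and 24.8% lower. In endoderm 21 were called, 13 higher and 8 lower, against 27.1% of all genes, 13.4% higher and 13.7% lower. In mesoderm 22 were called, 13 higher and 9 lower, against 35.2% of all genes, 17% higher and 18.2% lower. As shares these were 53.8%, 40.4% and 42.3% of the transporter genes tested. The median log2 fold change of the 52 was -0.34, -0.01 and 0.20, beside -0.01, -0.13 and 0.01 over all genes. The 3 comparisons share the hPSC libraries. With library totals in place of the TMM scaling factors, the median of all genes moved to 0.39, -0.46 and 0.24, and the called transporter genes split 15 higher and 12 lower in ectoderm and 12 higher and 13 lower in endoderm. Fitted fold changes below are relative to the TMM scaling. Bounds and ratios, given where a group had 3 or fewer reads, use library totals without scaling factors. No called member changed direction under any alternative tried. With a trend on transcript length removed, the ectoderm split was 8 higher and 17 lower. That setting took the ectoderm log2 fold change of SLC3A2 to -1.61, of SLC7A3 to -2.90, of SLC7A1 to -2.40, of SLC38A5 to -1.74, of SLC39A7 to -1.97, of SLC39A1 to -1.05, of SLC39A10 to 2.23, of SLC30A9 to 1.16 and of SLC30A1 to 1.78, and these stayed called. It took SLC7A6 to -2.09 and ended the ectoderm calls of SLC2A8, SLC2A12, SLC2A13, SLC7A11, SLC38A1 and SLC39A3 and the mesoderm call of SLC16A10. Library totals ended the ectoderm calls of SLC7A6 (log2 -0.79), SLC39A3 (-0.64) and SLC39A14 (-0.59) and the endoderm call of SLC30A7 (0.95). With DESeq2 the ectoderm calls of SLC2A12, SLC2A13, SLC7A6, SLC7A11, SLC16A14, SLC38A4 and SLC39A3 were lost, as were those of SLC7A7, SLC7A14, SLC16A9 and SLC30A7 in endoderm and of SLC16A10, SLC30A5, SLC39A3 and SLC39A13 in mesoderm. With only transcripts matching the reference the calls of SLC7A6 and SLC39A3 in ectoderm and of SLC30A7 and SLC39A10 (-1.53) in endoderm were lost, beside others given with their genes.

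**Figure D2:**
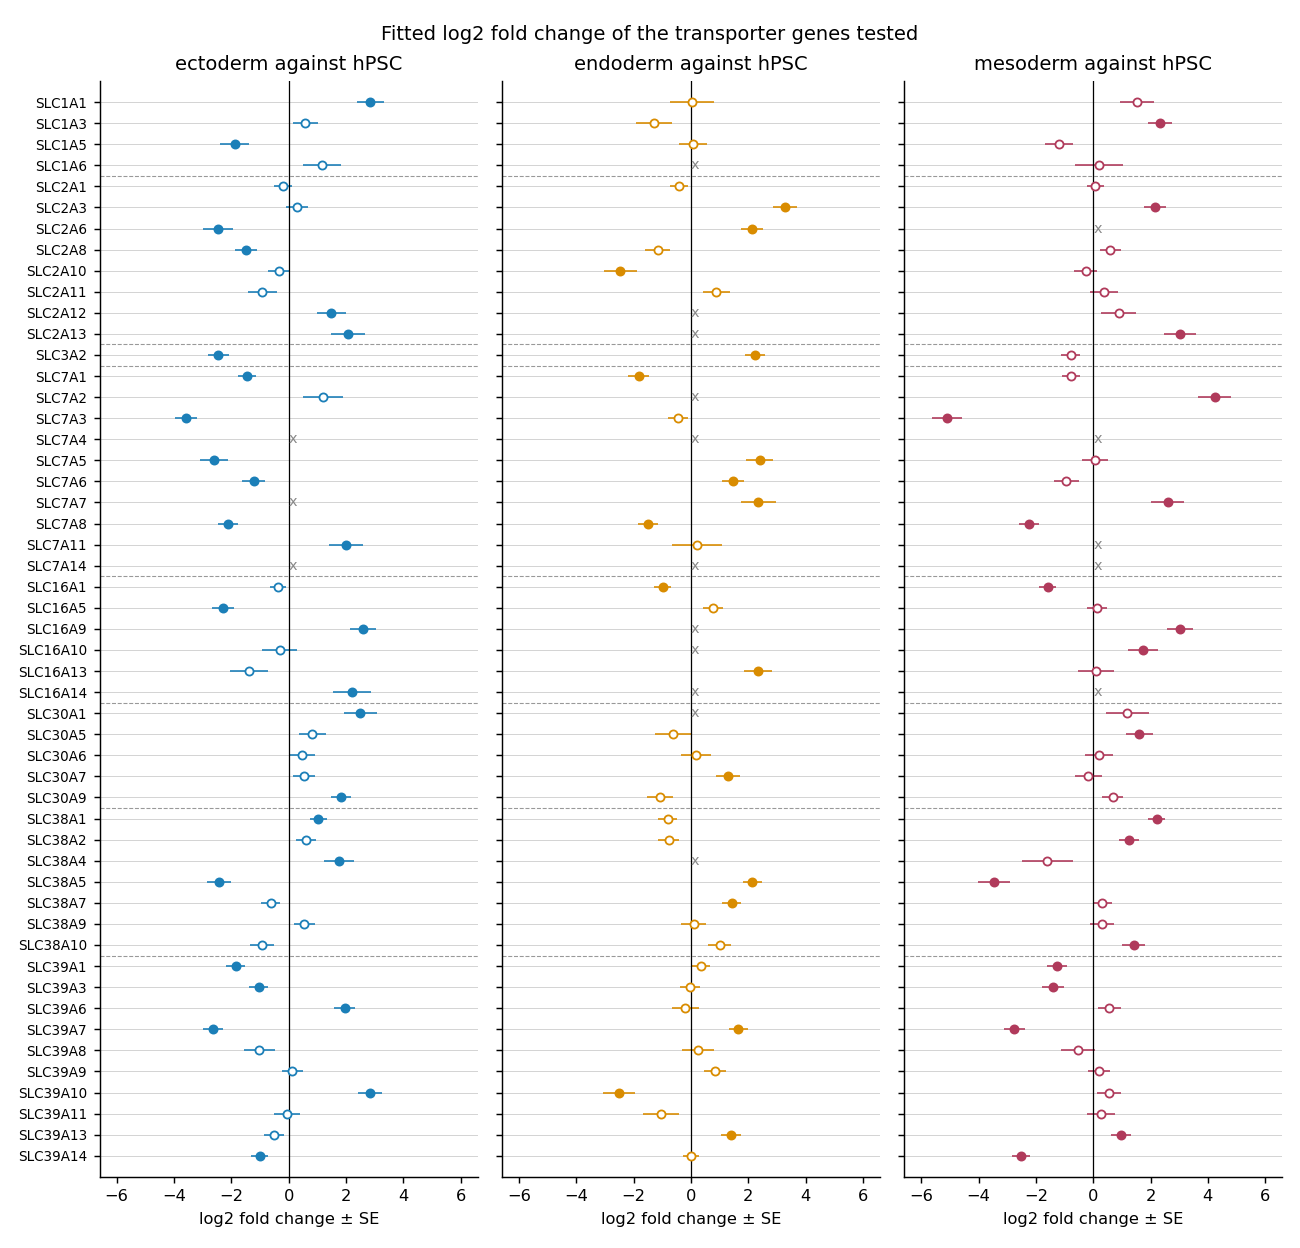
Fitted log2 fold change against hPSC with its SE (horizontal axis) for the transporter genes tested that are reported here (rows, grouped by family between dashed lines), in ectoderm, endoderm and mesoderm. Filled points passed an adjusted p of 0.05, open points did not, and a grey x stands for a gene with 3 or fewer reads in either group; SLC3A2 and SLC7A5 lie left of 0 in ectoderm and right of 0 in endoderm.

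Among the sugar carriers, SLC2A3, a glucose carrier of high affinity (chr12:7919217-7936187, minus strand), rose in endoderm and mesoderm. Its level was 1227 and 1753 CPM in hPSC, 13297 and 10234 in endoderm, 7963 and 8114 in mesoderm and 2389 and 2645 in ectoderm. All 4 endoderm and mesoderm libraries lay above all hPSC and ectoderm libraries. The fold change was 9.68 in endoderm (log2 3.28 ± 0.41 SE, adjusted p = 3.81e-05) and 4.47 in mesoderm (log2 2.16 ± 0.39, adjusted p = 0.000639), while in ectoderm it was not called (log2 0.29 ± 0.38, adjusted p = 0.54). SLC2A14 is a near-identical copy with 28 reads over all libraries, and how reads were divided between the copies is not given in the sources used here. SLC2A1, the widespread basal glucose carrier (chr1:42925353-42958868, minus strand), was not called in any layer. It had 472 and 486 CPM in hPSC, 672 and 518 in mesoderm, 614 and 508 in ectoderm and 248 and 324 in endoderm, and its log2 fold changes were -0.21 ± 0.30 (ectoderm), -0.41 ± 0.31 (endoderm) and 0.07 ± 0.31 (mesoderm). Per kilobase of transcript, SLC2A3 made up 65.6% ± 7.28 (SD, n = 2) of the SLC2 reads in hPSC and 95.7% ± 1.30 in endoderm. SLC2A1 went from 24.4% ± 2.93 to 2.73% ± 0.967 on the same scale.

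SLC2A6, a carrier of intracellular membranes, moved in opposite directions. It had 21.2 and 26.7 CPM in hPSC, 73.4 and 95.5 in endoderm, 4.23 and 7.24 in ectoderm, and no read in mesoderm. It fell in ectoderm (log2 -2.48 ± 0.52, adjusted p = 0.00148), rose in endoderm (log2 2.14 ± 0.39, adjusted p = 0.001) and was at least 4.13-fold lower in mesoderm, against a floor of 3 reads per library. SLC2A13, the proton-coupled myo-inositol carrier, had 3.85 and 3.56 CPM in hPSC and rose to 19.5 and 23.8 in ectoderm (log2 2.07 ± 0.59) and to 35.8 and 37.7 in mesoderm (log2 3.03 ± 0.57, adjusted p = 0.000864). The ectoderm call of SLC2A13 was lost without hPSC replicate 1 (log2 1.94, adjusted p = 0.057) and with the length trend removed (log2 1.56, adjusted p = 0.0549). SLC2A10 fell in endoderm from 27.0 and 33.8 to 5.12 and 3.41 CPM (log2 -2.47 ± 0.58, adjusted p = 0.00512), a call lost without endoderm replicate 2 (adjusted p = 0.0612). SLC2A8 and SLC2A12 were called in ectoderm, lower and higher, and both calls were lost without ectoderm replicate 2 and with a length trend removed. The SLC2A8 value of -1.50 ± 0.38 was -0.80 and not called without hPSC replicate 1, and the SLC2A12 value of 1.49 ± 0.52 was 1.11 and not called without hPSC replicate 2 and 2.21 without hPSC replicate 1. SLC2A12 had no read in endoderm, at least 2.03-fold lower than hPSC, and that call was lost without hPSC replicate 1 or either endoderm library. SLC2A11 was not called against hPSC.

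The enzymes that act on the imported glucose are given for context as a list of 17 glycolysis genes, all of which were tested. None rose and 14 fell in ectoderm, 2 rose and 3 fell in endoderm, and 1 rose and 16 fell in mesoderm, with medians of -2.04, -0.12 and -1.92 on the log2 scale. Their summed level was 21665 and 32419 CPM in hPSC, 39421 and 40851 in endoderm, 9855 and 9838 in mesoderm and 9658 and 7555 in ectoderm. With library totals as scaling, 12 fell in ectoderm and 6 fell in endoderm. In mesoderm, SLC2A3 rose while 16 of these enzymes fell. PKM, the pyruvate kinase gene, rose in endoderm from 4895 and 8005 CPM to 18273 and 18011, and PFKL, a phosphofructokinase subunit, was the other enzyme that rose there.

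**Figure D3:**
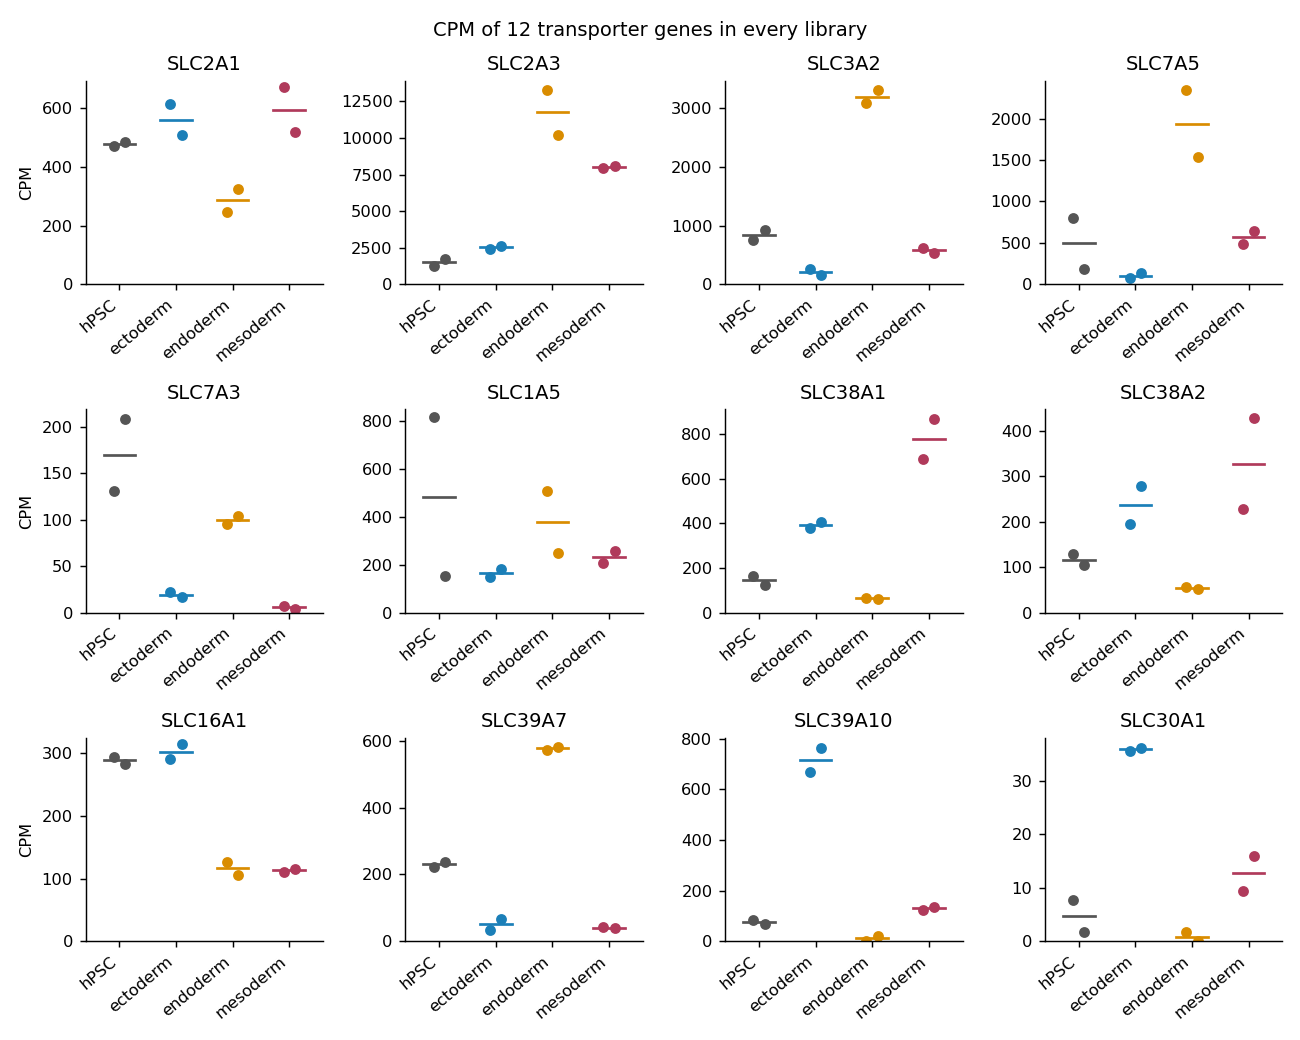
CPM (vertical axis, linear from 0, each panel on its own scale) of 12 transporter genes in the 8 libraries, by group on the horizontal axis. Points are libraries and bars are group means; the hPSC points of SLC7A5 and SLC1A5 lie far apart, and SLC39A10 and SLC30A1 are highest in both ectoderm libraries.

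The heavy chain SLC3A2 and the light chain SLC7A5 fell in ectoderm and rose in endoderm. SLC3A2 (chr11:62856102-62888880, plus strand) had 751 and 923 CPM in hPSC, 623 and 532 in mesoderm, 252 and 164 in ectoderm and 3091 and 3311 in endoderm. The groups did not overlap. It was 5.48-fold lower in ectoderm (log2 -2.45 ± 0.36, adjusted p = 8.52e-05) and 4.75-fold higher in endoderm (log2 2.25 ± 0.35, adjusted p = 0.000242), and in mesoderm the log2 fold change of -0.79 ± 0.34 was not called (adjusted p = 0.0815). SLC7A5, the light chain for leucine and other large neutral amino acids (chr16:87830016-87869507, minus strand), had 801 and 183 CPM in hPSC, 2343 and 1542 in endoderm, 484 and 647 in mesoderm and 72.8 and 130 in ectoderm. The mesoderm libraries lay between the 2 hPSC libraries, and ectoderm lay below and endoderm above both. It was 6.12-fold lower in ectoderm (log2 -2.61 ± 0.49, adjusted p = 0.000591) and 5.28-fold higher in endoderm (log2 2.40 ± 0.47, adjusted p = 0.00167), with 0.06 ± 0.46 in mesoderm (adjusted p = 0.937). Without hPSC replicate 1 these log2 fold changes were -1.48 and 3.56, still called, and without hPSC replicate 2 the endoderm value was 1.77.

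Among other light chains of SLC3A2, SLC7A6 was called in the same directions as SLC3A2 and SLC7A5, and SLC7A7, SLC7A8 and SLC7A11 were not. SLC7A6, which exchanges cationic for neutral amino acids, rose in endoderm from 38.5 and 42.7 to 99.1 and 80.2 CPM (log2 1.46 ± 0.38, adjusted p = 0.00931) and fell in ectoderm to 21.2 and 25.8 CPM (log2 -1.22 ± 0.41, adjusted p = 0.021). The ectoderm call was lost without ectoderm replicate 1, ectoderm replicate 2 or hPSC replicate 2 and with library totals (adjusted p = 0.122), and the endoderm call without endoderm replicate 1. SLC7A7, of similar function, rose in endoderm from 3.85 and 7.12 to 30.7 and 15.4 CPM (log2 2.35 ± 0.61, adjusted p = 0.0102) and in mesoderm to 39.5 and 41.7 CPM (log2 2.60 ± 0.57, adjusted p = 0.00272). Only transcripts matching the reference gave log2 values of 1.49 and 2.12 for SLC7A7, which were not called, and the endoderm call was lost without hPSC replicate 1 or endoderm replicate 1. Without hPSC replicate 2 its log2 values were 3.02 and 3.26. SLC7A8, another light chain for neutral amino acids, fell in all layers. It had 183 and 281 CPM in hPSC and 53.6 to 77.1 CPM in the 6 layer libraries, with log2 fold changes of -2.12 ± 0.34 in ectoderm, -1.48 ± 0.35 in endoderm and -2.25 ± 0.36 in mesoderm (adjusted p = 0.000171, 0.00531 and 0.000219). Its endoderm call was lost when either endoderm library was left out, and its ectoderm value was -1.52 without hPSC replicate 2. SLC7A11, the light chain for cystine uptake, rose in ectoderm from 3.85 and 7.12 to 23.7 and 38.3 CPM (log2 2.01 ± 0.59, adjusted p = 0.0106), a call lost without hPSC replicate 1, without ectoderm replicate 2 and with the length trend removed, and 2.73 without hPSC replicate 2. It had 3 reads in each endoderm library and 1 and 0 reads in mesoderm.

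SLC7A1, SLC7A2 and SLC7A3, cationic amino acid carriers that take up arginine and lysine without SLC3A2, differed among themselves. SLC7A3 fell in ectoderm and mesoderm. It had 131 and 208 CPM in hPSC, 7.53 and 3.97 in mesoderm, 22.0 and 16.5 in ectoderm and 95.6 and 104 in endoderm, so only the endoderm libraries came near those of hPSC. It was 11.9-fold lower in ectoderm (log2 -3.57 ± 0.39, adjusted p = 7.66e-06) and 34.2-fold lower in mesoderm (log2 -5.10 ± 0.51, adjusted p = 2.82e-06), and in endoderm its log2 fold change was -0.46 ± 0.34 (adjusted p = 0.346). The ectoderm value was -2.94 without hPSC replicate 2. SLC7A1 fell in ectoderm from 135 and 90.7 to 50.0 and 57.9 CPM (log2 -1.47 ± 0.32, adjusted p = 0.00163) and in endoderm to 17.1 and 32.4 CPM (log2 -1.82 ± 0.37, adjusted p = 0.00204), and was not called in mesoderm at 69.7 and 83.4 CPM (log2 -0.77 ± 0.33). These calls were lost without ectoderm replicate 1 and without endoderm replicate 1 (adjusted p = 0.0512 and 0.0603). SLC7A2 rose in mesoderm to 128 and 163 CPM from 13.5 and 0 in hPSC, where 7 reads were seen in all (log2 4.23 ± 0.58, adjusted p = 7.47e-05). Without hPSC replicate 2 its log2 fold change was 3.33, and without hPSC replicate 1 the hPSC group was at 0. It had 17.8 and 22.7 CPM in ectoderm and no read in endoderm. Among other SLC7 genes, SLC7A4 rose in mesoderm to 75.3 and 51.6 CPM from 1 read in hPSC. The ratio was 69.0, with a 95% exact interval of 12 to 2764 for counting error. SLC7A14 rose in endoderm to 20.5 and 23.9 CPM from 3 hPSC reads, a ratio of 8 (2.45 to 41.3), was lost from the calls without hPSC replicate 1 or either endoderm library, and had no read in ectoderm or mesoderm.

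Of the SLC1 carriers, the glutamine and neutral amino acid exchanger SLC1A5 had uneven hPSC libraries. It stood at 816 and 153 CPM in hPSC, 509 and 249 in endoderm, 209 and 258 in mesoderm and 147 and 181 in ectoderm, so every group overlapped the range of hPSC. It was called lower in ectoderm (log2 -1.89 ± 0.50, adjusted p = 0.00574), and the value without hPSC replicate 1 was -0.51, not called (adjusted p = 0.168). The call was also lost without either ectoderm library and with only the 4 libraries compared. In endoderm and mesoderm it was not called (log2 0.07 ± 0.48 and -1.19 ± 0.49). Of the glutamate carriers, 3 were tested. SLC1A1 rose in ectoderm from 11.6 and 3.56 to 69.4 and 75.5 CPM (log2 2.85 ± 0.48, adjusted p = 0.000264), with 8.54 and 3.41 in endoderm and 18.8 and 31.8 in mesoderm. Its log2 fold change was 3.68 without hPSC replicate 1 and 2.04 with all transcripts listed under the symbol. SLC1A3 rose in mesoderm from 17.3 and 19.6 to 82.8 and 139 CPM (log2 2.33 ± 0.41, adjusted p = 0.000517). SLC1A6 was not called against hPSC, and SLC1A4, with 17 reads in all, was not tested.

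The sodium-coupled glutamine carriers SLC38A1 and SLC38A2 were highest in mesoderm and lowest in endoderm. SLC38A1 (chr12:46183055-46269466, minus strand) had 166 and 123 CPM in hPSC, 689 and 869 in mesoderm, 378 and 404 in ectoderm and 64.9 and 63.1 in endoderm, with no overlap between groups. It rose in mesoderm 4.64-fold (log2 2.21 ± 0.30, adjusted p = 4.68e-05) and in ectoderm 2.04-fold (log2 1.03 ± 0.29, adjusted p = 0.0085), and was not called in endoderm (log2 -0.82 ± 0.31, adjusted p = 0.0647). The ectoderm call ended with the length trend removed (log2 0.26, adjusted p = 0.474). SLC38A2, a carrier known to be induced when amino acids are short, had 129 and 105 CPM in hPSC, 56.4 and 51.2 in endoderm, 228 and 429 in mesoderm and 196 and 279 in ectoderm. It was called in mesoderm (log2 1.26 ± 0.34, adjusted p = 0.0105), but not without mesoderm replicate 2 (log2 0.81, adjusted p = 0.154). Its values in ectoderm (0.60 ± 0.34) and endoderm (-0.78 ± 0.37) were not called.

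SLC38A5, which moves glutamine, histidine and other amino acids in either direction, had the opposite order. It had 44.3 and 49.8 CPM in hPSC, 7.53 and 1.98 in mesoderm, 10.2 and 13.4 in ectoderm and 147 and 184 in endoderm. It was 5.36-fold lower in ectoderm, 4.41-fold higher in endoderm and 11.1-fold lower in mesoderm (adjusted p = 0.000303, 0.000325 and 0.000225). The mesoderm log2 fold change of -3.48 ± 0.56 was -4.61 and -2.78 without mesoderm replicate 1 and replicate 2. Transcripts matching the reference alone gave -3.64, 1.55 and -4.41 in ectoderm, endoderm and mesoderm, all called. SLC38A7, a lysosomal glutamine carrier, rose in endoderm from 46.2 and 64.1 to 118 and 121 CPM (log2 1.43 ± 0.33, adjusted p = 0.00498). SLC38A10 rose in mesoderm from 108 and 26.7 to 198 and 204 CPM (log2 1.42 ± 0.40), a call lost without either mesoderm library and at 2.49 without hPSC replicate 1 and 0.82 without hPSC replicate 2. SLC38A4 was called higher in ectoderm with 51.7 and 66.2 CPM against 25.0 and 1.78 in hPSC (log2 1.76 ± 0.53), a call lost without hPSC replicate 2 (1.02) or ectoderm replicate 2 (1.73), and 4.32 without hPSC replicate 1. SLC38A9, a lysosomal sensor of arginine, was not called in any layer.

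The amino acid response, the programme that ATF4 runs when amino acids are short, is known to include SLC3A2, SLC7A5 and SLC7A11 among its targets. Of its 14 listed genes 12 were tested. None rose in any layer, and 11 fell in ectoderm, 7 in endoderm and 9 in mesoderm, where 24.8%, 13.7% and 18.2% of all genes fell. With library totals 10, 7 and 7 of the listed genes fell, and with RLE factors 1, ATF4, rose in endoderm. Their summed level was 3308 and 4617 CPM in hPSC and 1070 to 1592 CPM in the 6 layer libraries. In endoderm ASNS, asparagine synthetase, fell from 162 and 244 CPM in hPSC to 78.6 and 58.0 CPM, while ATF4 itself had 97.3 and 85.3 CPM against 61.6 and 67.6 in hPSC (log2 0.82, adjusted p = 0.0599) and SESN2, PSPH, SHMT2 and TRIB3 were not called. Of 9 other amino acid carriers, 2 rose and 2 fell in ectoderm, 2 rose and 3 fell in endoderm, and 2 rose and 5 fell in mesoderm. Calls in either direction over all genes tested came to 48.6%, 27.1% and 35.2% in these layers, in the same order.

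Among the monocarboxylate carriers, SLC16A1, which moves lactate and pyruvate (chr1:112911847-112956196, minus strand), fell in endoderm and mesoderm. It had 295 and 283 CPM in hPSC, 126 and 106 in endoderm, 111 and 115 in mesoderm and 291 and 314 in ectoderm. The ectoderm libraries overlapped those of hPSC, and both other layers lay below them. It was 3.01-fold lower in mesoderm (log2 -1.59 ± 0.30, adjusted p = 0.000771) and 1.98-fold lower in endoderm (log2 -0.99 ± 0.29, adjusted p = 0.0202), the latter not called without endoderm replicate 1 or replicate 2, and -0.36 ± 0.28 in ectoderm (adjusted p = 0.292). SLC16A3, the main lactate exporter of glycolytic tissues, had 1 and 0 reads in hPSC, 3 and 6 in mesoderm, 3 and 0 in ectoderm and 1 and 1 in endoderm, and was not tested. Of the partner proteins that bring such carriers to the membrane, BSG fell in ectoderm and mesoderm and EMB rose in ectoderm, to 32.2 and 41.4 CPM from 5.78 and 0. NPTN was not called.

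SLC16A9, a carrier of carnitine and creatine, rose in ectoderm and mesoderm. It had 17.3 and 5.34 CPM in hPSC, 96.5 and 84.8 in ectoderm, 88.5 and 127 in mesoderm, and 1 read in endoderm. It was 6.07-fold higher in ectoderm (log2 2.60 ± 0.45, adjusted p = 0.00034) and 8.20-fold higher in mesoderm (log2 3.04 ± 0.46, adjusted p = 0.000135), and without hPSC replicate 1 these log2 values were 3.44 and 3.88. In endoderm the hPSC level was 13.0 times the endoderm level (exact 95% interval 1.92 to 556), and its call there was lost when any 1 library but hPSC replicate 2 was left out. SLC16A13 rose in endoderm from 5.78 and 12.5 to 39.3 and 35.8 CPM (log2 2.33 ± 0.50, adjusted p = 0.00294), and its value was 3.16 without hPSC replicate 2. SLC16A14 rose in ectoderm from 3.85 and 3.56 to 27.1 and 19.6 CPM (log2 2.20 ± 0.65, adjusted p = 0.0119), a call lost without hPSC replicate 1 or either ectoderm library. SLC16A5 fell in ectoderm from 55.8 and 81.8 to 18.6 and 19.6 CPM (log2 -2.29 ± 0.38, adjusted p = 0.000238), but was not called from transcripts matching the reference (adjusted p = 0.0649). SLC16A10, a carrier of aromatic amino acids, rose in mesoderm to 28.2 and 37.7 CPM from 13.5 and 3.56 (log2 1.74 ± 0.54), a call lost without hPSC replicate 2 or either mesoderm library, and 2.74 without hPSC replicate 1.

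The zinc exporters that were called rose, and none fell. SLC30A1 (chr1:211571562-211579161, minus strand), the exporter of the plasma membrane, had 4 and 1 reads in hPSC, 1 and 0 in endoderm, 5 and 8 in mesoderm and 42 and 35 in ectoderm. In CPM this was 7.70 and 1.78 in hPSC and 35.6 and 36.2 in ectoderm, a log2 rise of 2.50 ± 0.58 (adjusted p = 0.00271) that was 3.62 without hPSC replicate 1. It was not called in mesoderm (log2 1.19 ± 0.75) or endoderm. SLC30A9, a carrier of mitochondria, rose in ectoderm from 48.1 and 26.7 to 155 and 192 CPM (log2 1.81 ± 0.34, adjusted p = 0.000634). Of the exporters of the secretory pathway, SLC30A5 rose in mesoderm from 32.7 and 5.34 to 64.0 and 67.5 CPM (log2 1.61 ± 0.48) and SLC30A7 rose in endoderm from 19.3 and 16 to 35.9 and 32.4 CPM (log2 1.29 ± 0.41). The SLC30A5 call was lost without hPSC replicate 2 (log2 0.92) or either mesoderm library and was 3.17 without hPSC replicate 1, and the SLC30A7 call was lost without hPSC replicate 1 or either endoderm library, and with library totals. SLC30A6 was not called in any layer.

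Of the zinc importers, SLC39A10 rose in ectoderm and SLC39A7 fell there. SLC39A10 (chr2:195586267-195737702, plus strand), an importer of the plasma membrane, had 82.8 and 67.6 CPM in hPSC, 124 and 135 in mesoderm, 667 and 765 in ectoderm and 1.71 and 18.8 in endoderm. It was 7.12-fold higher in ectoderm (log2 2.83 ± 0.41, adjusted p = 8.32e-05) and 5.69-fold lower in endoderm (log2 -2.51 ± 0.55, adjusted p = 0.00348), and not called in mesoderm (log2 0.56 ± 0.42, adjusted p = 0.314). The endoderm value was -1.54 and not called without endoderm replicate 1, and -4.98 without endoderm replicate 2. SLC39A6, its known partner in a complex, rose in ectoderm from 19.3 and 24.9 to 119 and 114 CPM (log2 1.95 ± 0.36, adjusted p = 0.000487). In endoderm and mesoderm SLC39A6 was not called (log2 -0.20 ± 0.47 and 0.56 ± 0.41). SLC39A7, which releases zinc from the endoplasmic reticulum (chr6:33200826-33204439, plus strand), had 223 and 238 CPM in hPSC, 574 and 582 in endoderm, 41.4 and 39.7 in mesoderm and 33.9 and 66.2 in ectoderm. It was 6.28-fold lower in ectoderm, 3.13-fold higher in endoderm and 6.72-fold lower in mesoderm (adjusted p = 4.4e-05, 0.00177 and 5.97e-05).

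Per kilobase of transcript, SLC39A1 was the most abundant importer in every group. On this scale it made up 65.6% ± 7.31 of SLC39 in hPSC and 39.6% ± 6.43 in ectoderm. SLC39A10 made up 27.1% ± 3.94 in ectoderm. By reads without this scaling, SLC39A10 exceeded SLC39A1 in ectoderm, with 788 and 740 against 572 and 347. SLC39A1 fell in ectoderm from 894 and 1326 to 484 and 359 CPM (log2 -1.86 ± 0.35, adjusted p = 0.00055). In mesoderm it fell to 599 and 516 CPM (log2 -1.27 ± 0.34, adjusted p = 0.00987), a call lost without either mesoderm library. SLC39A14, which also carries iron and manganese, fell in mesoderm from 412 and 384 to 73.4 and 89.3 CPM (log2 -2.53 ± 0.31, adjusted p = 2.4e-05). In ectoderm it had 257 and 272 CPM (log2 -1.02 ± 0.28, adjusted p = 0.00833), and that call was lost without either ectoderm library and with library totals. SLC39A8, of similar substrates, was not called in any layer, with 40.4 and 7.12 CPM in hPSC and 13.6 to 29 in the layers. SLC39A3 was called lower in ectoderm and mesoderm and SLC39A13 higher in endoderm and mesoderm, and each of these calls was lost when 1 library was left out. SLC39A9 and SLC39A11 were not called. Of 10 genes for zinc buffering and sensing only MTF1 and MT1X were tested. MT1X, a metallothionein, had 92.4 and 87.2 CPM in hPSC, 3.42 and 0 in endoderm, 13.5 and 14.5 in ectoderm and no read in mesoderm, and fell in all layers.

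Several genes differed between layers in opposite directions from hPSC. Directly compared, 38 of 52 transporter genes were called between ectoderm and endoderm, 18 higher and 20 lower in ectoderm, where 63.1% of all genes were called, 33.1% higher and 29.9% lower. Between ectoderm and mesoderm 27 were called, 11 higher and 16 lower in ectoderm, against 35.5% of all genes, 18.1% higher and 17.3% lower. Between endoderm and mesoderm 32 were called, 16 in each direction, against 47.1% of all genes, 23.2% higher and 23.9% lower in endoderm. With library totals the first split was 24 higher and 17 lower, and the last was 11 higher and 21 lower in endoderm; with the length trend removed the last was 21 and 14. SLC3A2 was lower in ectoderm than in endoderm by a log2 difference of -4.70 ± 0.39 (adjusted p = 2.84e-07) and SLC7A5 by -5.01 ± 0.54 (adjusted p = 2.41e-06). SLC39A10 was higher there by 5.34 ± 0.51 (adjusted p = 1.04e-06). SLC39A7 was higher in endoderm than in mesoderm by 4.4 ± 0.39 and SLC38A5 by 5.62 ± 0.49 (adjusted p = 7.44e-07 and 6.29e-07). SLC2A3 was higher in endoderm than in mesoderm by 1.11 ± 0.38 (adjusted p = 0.0249), and SLC2A1 was called in no comparison of layers.

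Each transporter gene was read as full assembled transcripts, and 94.9% of the reads fell in transcripts that match a reference transcript. With at least 20 reads in 2 or more groups, 43 genes could be described, of which 34 had more than 1 transcript. In 11 the most abundant transcript by pooled reads differed between groups. This count is not a test, and no share over all genes was computed for it. In SLC16A5, 1 of these, the most abundant of 41 transcripts held 12.8% of the reads. A change of transcript choice within a gene was tested for the 16 members that had at least 2 tested transcripts, among 2601 genes. In ectoderm 2 were called (5.73% of all genes), in endoderm 1 (5.04%) and in mesoderm 2 (7.04%). The called genes were SLC3A2 and SLC39A10 in ectoderm and mesoderm, and SLC3A2 in endoderm.

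SLC3A2 has starts 24.8 kb apart. In GENCODE 29, start codons lie at chr11:62856270-62856272 for 4 transcripts, just inside the upstream first exon, and at chr11:62881024-62881026 for 4 others, inside the downstream first exon (chr11:62880894-62881447), so these starts differ in the beginning of the annotated coding sequence. For 2 more transcripts the start codon lies at chr11:62885528-62885530. The upstream start gave 263 and 338 reads in hPSC, 71 and 56 in mesoderm, 190 and 103 in ectoderm and 708 and 834 in endoderm. The downstream start gave 120 and 176 reads in hPSC, 1091 and 1096 in endoderm, 256 and 210 in mesoderm and 92 and 44 in ectoderm. The upstream share was therefore 66.3% ± 1.63 (SD, n = 2) in hPSC, 21.2% ± 0.392 in mesoderm, 41.0% ± 2.72 in endoderm and 64.4% ± 0.571 in ectoderm. In mesoderm most reads came from the downstream start although the level of the gene was not called different from hPSC. A start further downstream, at position 62881698, took 6.30% ± 1.77 of the reads in ectoderm and 0.587% to 1.38% on average in the other groups. That position lies past the start codons of the upstream and downstream first exons. The adjusted p for transcript choice was 0.000118 in mesoderm and stayed called under every alternative run. It was 0.019 in endoderm, lost without either endoderm, ectoderm or mesoderm library (0.0543 to 0.401), and 0.0388 in ectoderm, lost without any 1 library but hPSC replicate 1 (0.0806 to 0.554). In ectoderm the transcript with the smallest p was the one from position 62881698, of 12 reads in hPSC and 27 in ectoderm.

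**Figure D4:**
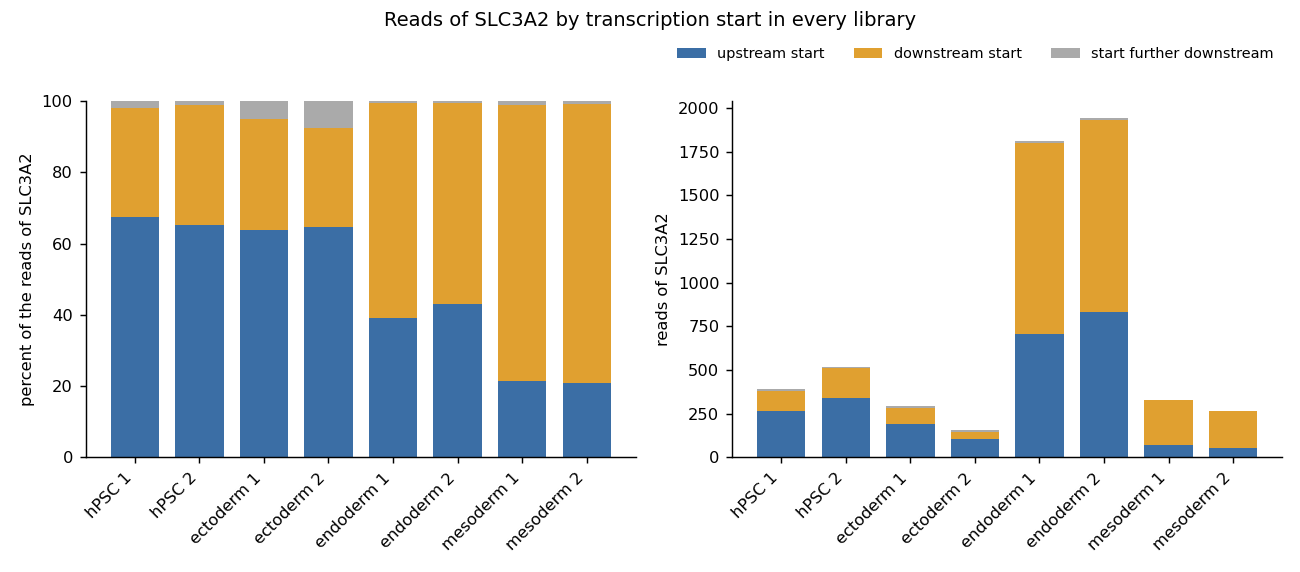
Reads of SLC3A2 by assembled start in the 8 libraries, as a percent of the reads of the gene (left axis panel, 0 to 100) and as counts (right panel). Bars are stacked by start; the upstream start takes most reads in the 4 hPSC and ectoderm libraries, and the downstream start in the 4 endoderm and mesoderm libraries.

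SLC39A10 was read from 3 places. The start class termed reference here lies between positions 195657128 and 195657316 of chromosome 2 and holds 3 transcripts, most of them matching the reference. A middle start lies 44.3 kb and a far start 70.9 kb before the main reference start, and both lie more than 1000 nt from any start of GENCODE 29. The far and middle transcripts share introns with the reference without matching a whole transcript, and all starts precede the annotated start codon at chr2:195680043-195680045. The far start had 26 and 14 reads in hPSC, 0 and 2 in endoderm, 33 and 29 in ectoderm and none in mesoderm, where 0 of 134 reads allows a share of up to 2.24%. The middle start had 1 and 5 reads in hPSC, 33 and 22 in mesoderm, 67 and 64 in ectoderm and none of 12 in endoderm. The reference start had 16 and 19 reads in hPSC, 33 and 46 in mesoderm, 688 and 647 in ectoderm and 1 and 9 in endoderm. The far start thus took 48.7% ± 16.7 (SD, n = 2) of the reads in hPSC and 4.05% ± 0.190 in ectoderm, and the middle start took 41.2% ± 12.5 in mesoderm. The adjusted p for transcript choice was 0.000406 in ectoderm and 0.00017 in mesoderm, and 0.486 in endoderm, where the gene had 12 reads. With only transcripts matching the reference it was not called (0.82 and 0.918), since the far and middle transcripts are then left out, and the ectoderm call was lost without ectoderm replicate 1 (0.0633). From reference transcripts alone the gene rose more in ectoderm, by 4.03 on the log2 scale.

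**Figure D5:**
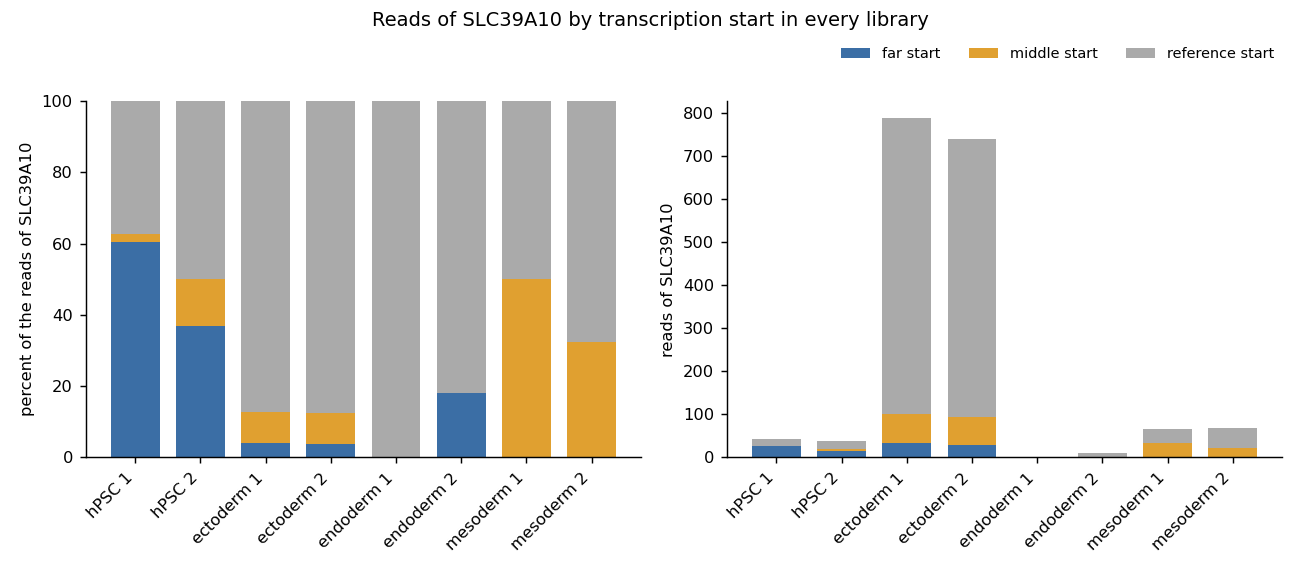
Reads of SLC39A10 by assembled start in the 8 libraries, as a percent of the reads of the gene (left panel, 0 to 100) and as counts (right panel). Bars are stacked by start; as a percent of reads the far start is largest in hPSC replicate 1 and the middle start in mesoderm replicate 1, as counts both are highest in ectoderm, and the reference start makes up most of the tall ectoderm bars, while endoderm replicate 1 rests on 1 read.

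Other members had few reads from starts far from the annotation. Besides SLC39A10, only SLC38A10 and SLC1A3 had at least 20 such reads, with 24 and 22, or 4.87% and 10.0% of their reads. SLC39A3, SLC39A7 and SLC7A3 had 2 transcripts each, which match the reference, and the more abundant of them differed between groups. For SLC7A3 the first had 44 and 66 reads in hPSC and 22 and 26 in endoderm, and the second 24 and 51 in hPSC and 34 and 35 in endoderm, a difference that was not called (adjusted p = 0.354).

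The 18 members that were not tested had from 2 to 62 reads over all libraries. They are SLC1A2, SLC1A4, SLC2A4, SLC2A9, SLC2A14, SLC7A10, SLC16A3, SLC16A4, SLC16A7, SLC16A12, SLC30A2, SLC30A3, SLC30A4, SLC30A10, SLC38A3, SLC38A6, SLC39A2 and SLC39A4. The insulin-responsive glucose carrier SLC2A4 had 28 reads, the neutral amino acid exchanger SLC1A4 had 17 and the lactate exporter SLC16A3 had 15. The filter left these genes out. Without it all 70 were tested, and 28 were called in ectoderm, 25 in endoderm and 25 in mesoderm.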

How the data were processed

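Polyadenylated RNA from 8 samples was sequenced on a PacBio instrument, per the labels. The authors deposited raw read counts per transcript of a combined assembly. The 2 deposited endoderm columns, handled under the class of expected counts, are whole raw counts like the rest and needed no rounding. The submitters' processing notes name minimap2 and StringTie; versions, the counter, the annotation release and the use of strand are not given in the sources used here. Transcript positions, deposited by the authors, are on GRCh38: of 118 multi-exon transcripts of these genes with a reference identifier, 115 (97.5%) have the introns of GENCODE 29.

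Counts were summed per gene over transcripts that the assembly names for it. Another 24 transcripts listed by position only were left out. Genes were tested two-sided with edgeR 4.0.16 (limma 3.58.1, R 4.3.3) in 1 quasi-likelihood fit over all 8 libraries, with TMM scaling, a minimum count of 10 and Benjamini-Hochberg adjustment at 0.05, and transcript choice with diffSpliceDGE. Adjusted p-values come from these fits over all genes. SE is the absolute log2 fold change over √F of the quasi-likelihood test. A group at 0 gave a bound against 3 counts per library, and 1 to 3 counts a ratio with a 95% exact conditional binomial interval. Both were taken from library totals, without TMM factors. The tests were checked on simulated data in which all groups shared 1 spread per gene. That check does not cover the wider spread between the hPSC libraries. DESeq2 1.42.0, other scalings, filters, transcript sets and left-out libraries were alternatives.

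The transporter genes and the related lists were chosen with earlier results of these data known. Full statistics were given for a fixed set of members and, per layer, for the 5 highest and 5 lowest called fold changes where the higher group had 10 CPM or more in each library. Members called beyond that rule were given with shorter values. The counts include 1 tested member that is not reported here.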

Additional observations from a re-analysis of the deposited data

Results flagged for a closer look

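Several genes were called in opposite directions from hPSC in a pair of layers, and each difference between the layers was tested in the same edgeR fit and called. Ectoderm minus endoderm, the log2 difference was -4.70 for SLC3A2, -5.01 for SLC7A5, -2.68 for SLC7A6, -4.56 for SLC38A5, -4.30 for SLC39A7, 5.34 for SLC39A10 and -4.62 for SLC2A6. Fitted values of 7.46 for SLC2A12 and 5.77 for SLC16A9 rest on endoderm groups with no read or 1 read, depend on the prior count and are no bounds. Endoderm minus mesoderm, it was 5.62 for SLC38A5 and 4.4 for SLC39A7, with fitted values of 9.35 for SLC2A6, which had no read in mesoderm, and -6.21 for SLC16A9. Both directions were read against the same hPSC libraries.

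Some transcripts listed under a transporter gene by position only, and left out of its counts, had more reads in every library of a layer, relative to its total, than in the hPSC libraries. Those with more than 3 reads in each library of that layer are given, a cutoff that the deeper ectoderm libraries pass more easily. No share over all transcripts listed by position was computed. An intronic transcript at SLC16A10 had 13 reads in ectoderm and 10 in mesoderm. Others had 17 reads in ectoderm at SLC30A7, 15 at SLC38A9 and 21 at SLC39A10, where they are intronic, and 11 at SLC38A1, where the transcript is antisense. Mesoderm had 6, 7, 8 and 5 reads of these transcripts, in the same order. Relative to library totals these were also above hPSC in each mesoderm library, but they did not pass the cutoff.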

How the results depend on the processing

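No called fold change reversed under any alternative run. In every alternative that tested them, 14 of 28 transporter genes kept their call in ectoderm, 8 of 21 in endoderm and 14 of 22 in mesoderm. Some alternatives tested fewer members, such as 44 with only transcripts matching the reference. Leaving out 1 library moved the number called from 10 to 31 in endoderm, with 10 without endoderm replicate 1 and 12 without endoderm replicate 2, and from 17 to 35 between ectoderm and mesoderm, with 17 without ectoderm replicate 2. For changes of transcript choice, leaving out 1 library gave 0 to 3 genes in ectoderm, 0 to 1 in endoderm and 2 to 4 in mesoderm. In ectoderm 1 gene was called with a minimum count of 5, and 1 with only transcripts matching the reference, which was also 1 in mesoderm. In endoderm a Simes p over transcripts called 0 genes, where edgeR's gene test called 1 and 3 had an unadjusted p under 0.05. The cause was not tested. DESeq2 called 20, 16 and 18 transporter genes in ectoderm, endoderm and mesoderm. Shares over all genes were computed for the main fit only, so none stands beside the counts of the alternatives. Depth limits the members with few reads in hPSC, where 1 library set several calls.

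The labels do not say whether same-numbered repeats shared a batch. Their deviations from the group means correlated from -0.0341 to 0.151 between groups, which cannot settle it. With the repeat number as a replicate block, the numbers of genes called were 28, 21 and 22 against hPSC, and 39, 24 and 31 between layers. Changes of transcript choice with the replicate block were 1 in ectoderm, 0 in endoderm and 2 in mesoderm. SLC3A2 lost its call there in ectoderm and endoderm (diffSpliceDGE adjusted p = 0.117 and 0.0607).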
